A study of Homo sapiens with 21 samples.

Results

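Diethylstilbestrol (DES) was added to MDA-MB-453 cells that also received calcium, and the transcripts of 3 such libraries were set against those of 3 libraries from cells given calcium alone. The genes described are the 14608, of 58735 in the deposited table, with a mean of at least 0.5 FPKM (fragments scaled to the length of the gene and the size of the library) over these 6 libraries. At the edge of this limit SH3PXD2B, with a mean of 0.5001 FPKM, was inside, and CYP4V2, with 0.4997 FPKM, was outside. The comparison asks which genes DES moved while calcium was present, and a test of the interaction asks whether DES moved them by the same amount without calcium.

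MDA-MB-453 is an established human breast cancer line of luminal type that lacks estrogen receptor alpha. Poly-A RNA was sequenced in 21 libraries, 3 for each of 7 groups. Calcium was given at 10 mM for 24 h in IMEM without serum, and in the combined group DES at 10 µM was added 3 h earlier. The DES group had 10 µM DES for 24 h, the control group was labelled as untreated, and cadmium was given at 10 µM for 24 h in 1% charcoal-stripped serum, with or without DES from 3 h before. The seventh group had GSK4716, dissolved in ethanol, at 5 µM for 24 h and enters only the fits of all 7 groups. DES was dissolved in ethanol and the labels state no ethanol for the calcium group, so DES and its solvent cannot be told apart. The labels do not say whether the replicates were separate cultures, so the p-values measure the spread between these samples.

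DES is a synthetic estrogen that activates estrogen receptor alpha and antagonizes the estrogen-related receptors, orphan nuclear receptors known for driving genes of mitochondrial energy metabolism. Raised calcium outside the cell is known to act through calcium entry and MAP kinase signaling on immediate early genes, which are transcribed within minutes of a stimulus. Heat shock genes are transcribed by HSF1 when proteins unfold, and metallothionein genes by the zinc sensor MTF1.

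The calcium libraries held 22056579, 16987426 and 21145205 fragments on genes, and the DES with calcium libraries 17944781, 25090928 and 16317467. A gene 1 kilobase long with 3 fragments, the number that a count of 0 allows, stood at 0.134, 0.172 and 0.134 FPKM in the calcium libraries and at 0.185, 0.139 and 0.195 in the DES with calcium libraries; such floors cover counting error only. The first principal component held 52.7% of the variance and separated the groups. Correlations between libraries of log2 FPKM were 0.896 to 0.925 within groups and 0.773 to 0.821 between them. In no pair of libraries did more than 0.447% of the genes with over 20 fragments have equal fragment numbers.

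The cells carried luminal markers. All 12 luminal epithelial markers passed the filter, with KRT19 the most abundant, and their summed level was 4658.5, 4819 and 3394 FPKM with calcium and 3502, 4206 and 2833 FPKM with DES and calcium. Of 6 leukocyte markers all were under 1 FPKM in every library and 2 were at 0, with a summed level of at most 1.10 FPKM. Of 4 endothelial markers 2 were at 0, with a summed level of at most 0.0948 FPKM, and of 6 fibroblast markers only COL1A1 was over 1 FPKM and 2 were at 0. Of 6 basal or myoepithelial markers 5 were under 1 FPKM in every library, with a summed level of 2.39, 8.95 and 4.11 FPKM with calcium and 1.11, 1.82 and 0.313 FPKM with DES and calcium. The other was KRT17, chosen after its values were seen, at 1.99, 8.10 and 3.67 FPKM with calcium, 0.925, 1.49 and 0.0415 FPKM with DES and calcium and a mean of 0.0596 FPKM in control. Its call (log2 fold change -2.71, adjusted p = 0.0479) ended with quantile normalization, without any 1 of the calcium replicates and without DES with calcium replicate 1 or 3, at an adjusted p of up to 0.184. ESR1, the gene of estrogen receptor alpha, stood at 0, 0 and 0.0193 FPKM with calcium and at 0, 0 and 0.0281 with DES and calcium.

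With DES and calcium against calcium, limma called 5290 of 14608 genes (36.2%) at an adjusted p under 0.05, 2801 higher (19.2%) and 2489 lower (17%). Of the called genes 1827 were at least 1 log2 higher and 1740 at least 1 log2 lower, and 452 and 534 moved by at least 2 log2. At an unadjusted p under 0.05 there were 6889 genes. The libraries of the groups did not overlap for 3787 genes that were higher (25.9%) and 3678 that were lower (25.2%). Without DES with calcium replicate 1 the calls numbered 3410, with 1756 higher and 1654 lower, and without calcium replicates 1 and 2 the genes called lower numbered 1655 and 1641. The median log2 fold change of all genes was -0.01; it was -0.19 when libraries were scaled by their total fragments and -0.20 in limma-voom, where 40.0% and 38.0% of the calls were higher in place of 52.9%. With all 7 groups in 1 fit 2712 were higher and 2808 lower. A gene with a mean under 0.5 FPKM in 1 group passed the filter through the other group only and could hardly be called the other way. Such calls in the lists included 1 G1/S gene that rose, 1 immediate early gene and 1 tubulin gene that fell, and those named below. Log2 fold changes below are given with their standard error (SE) as fitted by limma on FPKM.

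**Figure D1:**
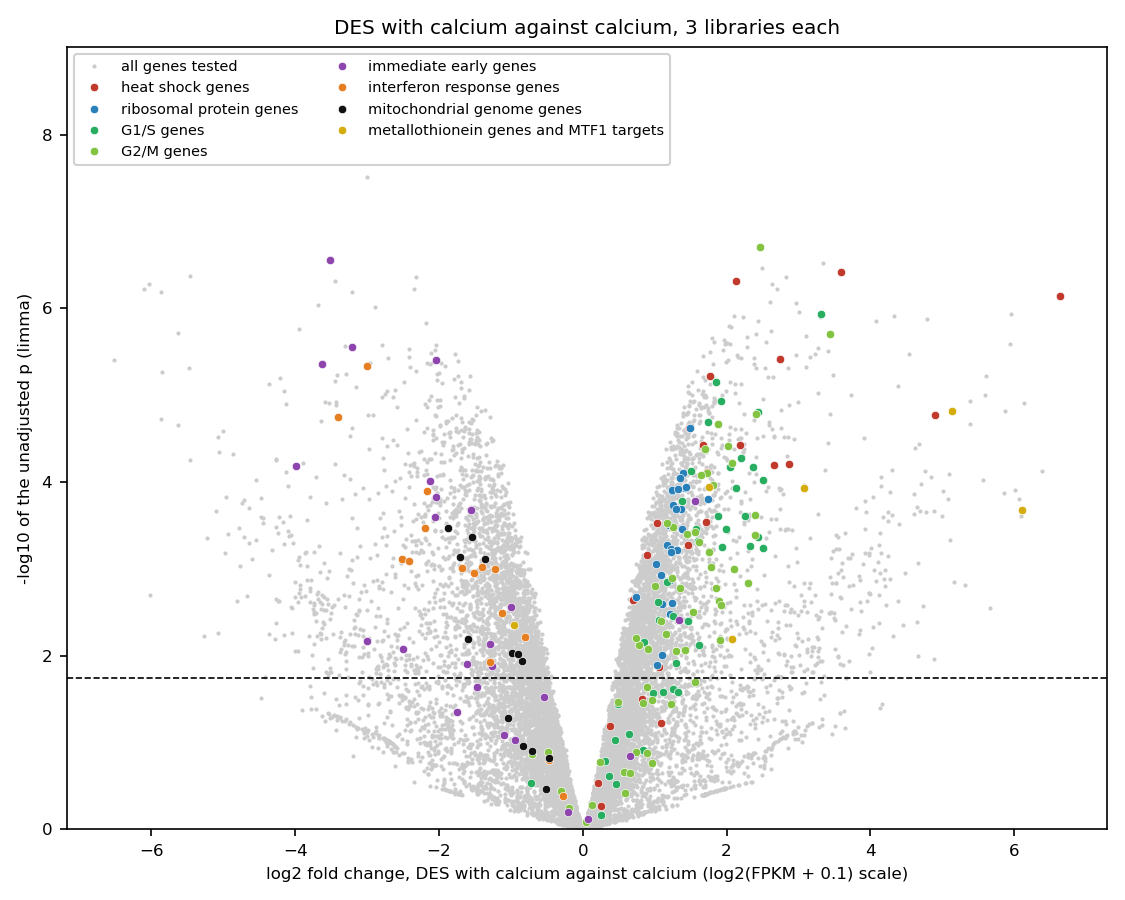
Log2 fold change (DES with calcium against calcium) of each of the 14608 genes against the negative log10 of its unadjusted p from limma, with members of 8 gene lists in color and a dashed line at the largest p still called. Heat shock, ribosomal protein and cell cycle genes lie mostly on the right, and interferon and immediate early genes mostly on the left.

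Of 23 heat shock genes tested, many of them for chaperones, 18 rose and none fell, with a median log2 fold change of 1.67 against -0.01 over all genes, and the number that rose stayed between 16 and 18 without any 1 library. HSPA6 (ENSG00000173110, chromosome 1, 161524540 to 161526910, plus strand), a strictly inducible HSP70, stood at 6.56, 16.2 and 4.60 FPKM with calcium and at 898, 501 and 1109 FPKM with DES and calcium. The groups lay far apart, with the lowest DES library above the highest calcium library. Its log2 fold change was 6.63 (SE 0.47, adjusted p = 0.000549), the largest rise among the genes named by rule. DNAJB1 (ENSG00000132002, chromosome 19, 14514770 to 14529770, minus strand), the HSP40 that delivers substrates to HSP70, stood at 60.5, 94.4 and 57.4 FPKM with calcium and at 943, 712 and 862 FPKM with DES. No library of one group reached the range of the other, and the log2 fold change was 3.59 (SE 0.24, adjusted p = 0.000526). HSPA1B, the major inducible HSP70, went from 62.6, 153 and 58.2 FPKM to 664, 469 and 697 FPKM (log2 fold change 2.87, SE 0.37).

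CRYAB, a small heat shock protein, was at or under 0.0754 FPKM in the calcium libraries and at 3.69, 2.62 and 7.06 FPKM with DES and calcium; it passed the filter only through the latter and is 1 of the 18 that rose. The cytosolic chaperone HSP90AA1, chosen after its values were seen, was already abundant, at 247, 416 and 316 FPKM with calcium, and stood at 2063, 1930.5 and 2458 FPKM with DES (log2 fold change 2.74, SE 0.24). HSPA1A, HSPH1 and BAG3, chosen after their values were seen, rose by log2 fold changes of 2.66, 2.19 and 1.46. HSPA1A and HSPA1B are near-identical, so how fragments divide between them is uncertain. HSF1 itself, chosen after its values were seen, at a log2 fold change of 0.38, did not pass the test (adjusted p = 0.129).

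Metallothioneins, small cysteine-rich proteins that bind zinc, copper and cadmium, rose as well. Of 6 tested genes in the list of metallothioneins and MTF1 targets 5 rose and 1 fell, with a median of 2.58, and 4 or 5 rose without any 1 library. The other 8 members were below the filter, and MT1E and MT1X passed it only through the DES with calcium libraries, with means of 0.127 and 0.477 FPKM with calcium, so such members could be counted as higher but hardly as lower. MT2A (ENSG00000125148, chromosome 16, 56608199 to 56609497, plus strand) stood at 48.9, 75.8 and 103 FPKM with calcium and at 342, 610.3 and 1117 FPKM with DES and calcium. Every DES library was above every calcium library, by a log2 fold change of 3.08 (SE 0.44, adjusted p = 0.00233). MT1E was close to absent with calcium, at 0.128, 0 and 0.255 FPKM, and stood at 2.69, 23.9 and 39.6 FPKM with DES. MT1X stood at 0.505, 0.548 and 0.378 FPKM and at 9.24, 16.8 and 51.0 FPKM, a log2 fold change of 5.13 (SE 0.55). For MT2A, MT1E and MT1X the third DES library was the highest and the first the lowest.

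MT1F rose by a log2 fold change of 2.07 (SE 0.57, adjusted p = 0.0242), and that call ended without calcium replicate 1, 2 or 3 or DES with calcium replicate 2 or 3, at an adjusted p of up to 0.0936. SLC30A1, the zinc exporter of the plasma membrane, chosen after its values were seen, stood at 4.33, 6.60 and 6.80 FPKM with calcium and at 16.9, 17.9 and 26.0 FPKM with DES and calcium. The member that fell was MTF1, from 5.96, 5.23 and 5.83 FPKM to 2.62, 3.95 and 2.25 FPKM, chosen after its values were seen. Its call (log2 fold change -0.96, adjusted p = 0.0189) ended without calcium replicate 1, 2 or 3 or DES with calcium replicate 1 or 3, at an adjusted p of up to 0.0736.

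The promoters of MT1X, MT2A, HSPA6 and HSPA1B are shown because these genes rose together with most members of their lists. They come from RefSeq on build GRCh38.p14, from 250 bases before a promoter start to 50 after it, read 5′ to 3′ on the plus strand. They lie at chr16:56682220-56682519, chr16:56608334-56608633, chr1:161524290-161524589 and chr6:31827488-31827787. The promoter start is not always the gene start. For MT1X and MT2A the 2 differ, and the MT2A window begins inside the gene as placed above. Capitals mark the core of the metal response element, TGCGCNC or TGCACNC on either strand, in the metallothionein promoters, and the heat shock element unit, GAANNTTC or TTCNNGAA on either strand, in the HSPA promoters.
MT1X: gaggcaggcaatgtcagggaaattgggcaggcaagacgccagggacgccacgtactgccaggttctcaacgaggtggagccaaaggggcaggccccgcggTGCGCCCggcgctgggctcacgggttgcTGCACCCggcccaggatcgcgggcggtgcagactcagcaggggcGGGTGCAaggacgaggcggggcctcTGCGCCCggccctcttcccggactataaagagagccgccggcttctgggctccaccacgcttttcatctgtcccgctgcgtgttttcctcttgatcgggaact
MT2A: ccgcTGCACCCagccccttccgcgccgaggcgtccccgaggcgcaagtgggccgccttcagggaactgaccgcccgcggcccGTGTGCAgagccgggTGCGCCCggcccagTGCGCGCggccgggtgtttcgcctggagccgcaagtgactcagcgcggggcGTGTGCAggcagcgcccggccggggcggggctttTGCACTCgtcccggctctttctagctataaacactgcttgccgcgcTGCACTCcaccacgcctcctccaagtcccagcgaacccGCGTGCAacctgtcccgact
HSPA6: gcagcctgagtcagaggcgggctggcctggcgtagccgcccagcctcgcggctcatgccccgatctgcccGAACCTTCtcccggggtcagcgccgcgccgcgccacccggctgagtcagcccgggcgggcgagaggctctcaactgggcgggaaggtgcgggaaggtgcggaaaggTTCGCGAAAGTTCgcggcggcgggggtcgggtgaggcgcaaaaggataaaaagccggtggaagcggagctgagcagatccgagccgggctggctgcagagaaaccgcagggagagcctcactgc
HSPA1B: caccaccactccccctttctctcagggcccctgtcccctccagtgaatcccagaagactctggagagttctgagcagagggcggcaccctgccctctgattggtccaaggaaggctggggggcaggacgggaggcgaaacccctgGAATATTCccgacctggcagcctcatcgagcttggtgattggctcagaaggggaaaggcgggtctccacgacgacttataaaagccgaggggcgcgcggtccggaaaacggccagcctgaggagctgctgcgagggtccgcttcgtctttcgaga
The metal response core matched 4 times in MT1X and 8 times in MT2A, and it was in 3 of the 3 promoters found for metallothionein list genes called higher, against 29.6% of all 35116 promoters and 39.4% of the 9097 promoters of genes tested. In other lists it was in 4 of 5 promoters of Notch pathway genes called lower (80%) and in 1 of 9 of interferon genes called lower (11.1%). It was also in 10 of 16 promoters of metabolic target genes of the estrogen-related receptors called higher (62.5%). The heat shock unit matched 3 times in HSPA6, with a pair of matches that overlap, and 1 time in HSPA1B. It was in 7 of 17 promoters of heat shock genes called higher (41.2%), against 13.5% of all promoters and 9.76% of those of genes tested. The DNAJB1 window had 0 matches, but it lies inside the gene as placed above, so the stretch around that gene start was not searched. Of 21 promoters of ribosomal protein genes 8 had the unit (38.1%). The matches describe letters in these windows only.

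**Figure D2:**
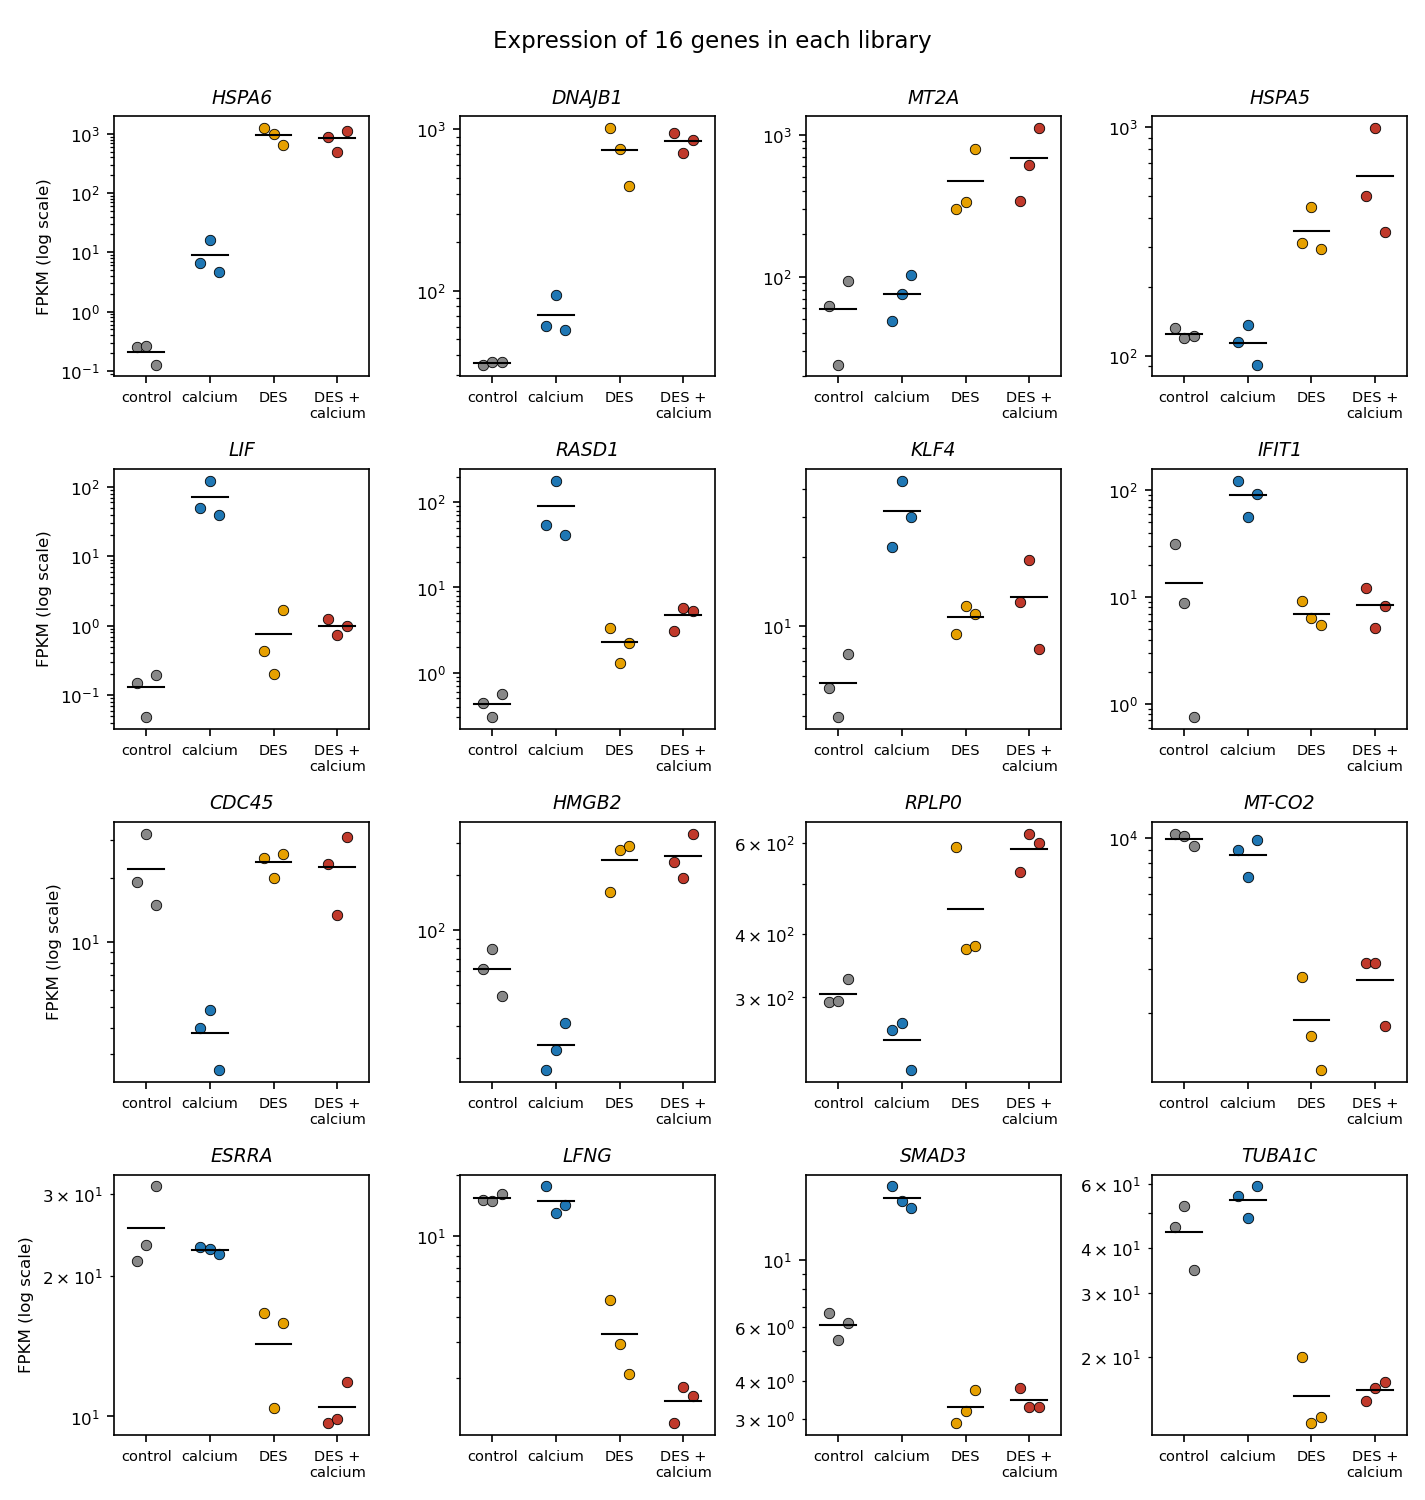
FPKM (log axis) of 16 genes in the control, calcium, DES and DES with calcium groups, with a point for each library and a line for the mean of 3. HSPA6 stands near 9.12 FPKM with calcium and 836 with DES and calcium, while LIF stands at 71.0 with calcium and 0.991 with both.

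Genes of protein folding in the endoplasmic reticulum rose more often than they fell, but less so with quantile normalization. Of 23 unfolded protein response genes 12 rose and 2 fell, with a median of 0.72. The 2 that fell are a smaller share than the 17% of all genes called lower. The number that rose was 7 without calcium replicate 1, 6 without calcium replicate 2, and 7 without calcium replicate 3 or DES with calcium replicate 1 or 2, and 1 fell without any 1 library but calcium replicate 1. With quantile normalization 4 rose and 2 fell, with a median of 0.40, and 3 fell by total fragments and in limma-voom. HSPA5 (ENSG00000044574, chromosome 9, 125234853 to 125241330, minus strand), the HSP70 of the endoplasmic reticulum, stood at 115, 136 and 91.7 FPKM with calcium and at 499, 994 and 348 FPKM with DES. The lowest DES library was above all calcium libraries, and the log2 fold change was 2.30 (SE 0.37, adjusted p = 0.00335). DNAJB9, its cochaperone, rose by 1.60, and EDEM1, which routes misfolded glycoproteins to degradation, fell by 1.23 on the log2 scale. XBP1, the transcription factor of this response, chosen after its values were seen, had overlapping groups and a log2 fold change of 0.31 (adjusted p = 0.345), which was -0.31 with quantile normalization.

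Of 24 integrated stress response genes 11 rose and 2 fell, with a median of 0.54, while 9 rose and 5 fell with quantile normalization, with a median of 0.19. The median was 0.35 by total fragments and 0.36 in limma-voom, where 10 rose and 6 fell; without calcium replicate 3 it was 0.35 and without DES with calcium replicate 2 it was 0.21. With a replicate block 5 fell. ASNS, which makes asparagine, stood at 0.422, 0.270 and 0.361 FPKM with calcium and at 1.92, 2.54 and 3.23 FPKM with DES and calcium (log2 fold change 2.55, SE 0.37), and passed the filter only through the latter. SLC3A2, a subunit of amino acid transporters, rose by 2.24, MTHFD2, of mitochondrial folate metabolism, by 2.03 and PHGDH, which opens the serine pathway, by 1.90. DDIT3, the CHOP transcription factor, chosen after its values were seen, stood at 23.2, 25.7 and 18.5 FPKM with calcium and at 60.5, 73.9 and 40.1 FPKM with DES. SLC7A11, the cystine transporter, fell (log2 fold change -1.83, adjusted p = 0.0292) although its groups overlapped. Its call ended without calcium replicate 2 or 3 or DES with calcium replicate 1 or 3, at an adjusted p of up to 0.114. The number of members that fell was 4 without DES with calcium replicate 2, 0 without DES with calcium replicate 1, and 1 without any other library.

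Of 20 aminoacyl-tRNA synthetase genes 8 rose and 1 fell, with a median of 0.61, while with quantile normalization 5 rose and 2 fell, with a median of 0.27. By total fragments and in limma-voom 2 fell. Without calcium replicate 2 the number that rose was 4, and without calcium replicate 3 or DES with calcium replicate 1 or 2 it was 5. LARS, the leucine enzyme, stood at 6.19, 7.91 and 8.15 FPKM with calcium and at 16.4, 17.4 and 15.9 FPKM with DES, and the groups did not overlap. DARS and KARS, the aspartate and lysine enzymes, rose by 1.08 and 1.04. YARS, the tyrosine enzyme, rose by 0.99 (adjusted p = 0.0275), a call that ended without calcium replicate 2 or 3 or DES with calcium replicate 1 or 2, at an adjusted p of up to 0.0940.

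Genes of the cell cycle rose in number. Of 42 G1/S genes tested 29 rose and none fell, with a median of 1.48, and the libraries did not overlap for 33. Of 55 G2/M genes 36 rose and none fell, with a median of 1.30; 1 fell without DES with calcium replicate 3. Without any 1 library the G1/S genes that rose numbered 22 to 30, and the G2/M genes 24 to 41. More cycling cells and more of these RNAs per cell cannot be told apart in bulk samples.

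CDC45 (ENSG00000093009, chromosome 22, 19479459 to 19520612, plus strand), a subunit of the replicative helicase, stood at 3.998, 4.80 and 2.53 FPKM with calcium and at 23.1, 13.4 and 30.8 FPKM with DES and calcium. The groups did not overlap, and the log2 fold change was 2.51 (SE 0.35, adjusted p = 0.00213). CENPU, a kinetochore protein, stood at 4.64, 7.22 and 8.26 FPKM with calcium and at 63.1, 55.8 and 81.2 FPKM with DES, the largest rise of the G1/S list at 3.32 (SE 0.25). HMGB2 (ENSG00000164104, chromosome 4, 173331695 to 173335125, minus strand), a chromatin protein of dividing cells, stood at 17.2, 22.2 and 31.0 FPKM and at 237, 192 and 338 FPKM. Its lowest DES library was far above the highest calcium library, and it led the G2/M list with 3.44 (SE 0.28). CKS1B, a cyclin-dependent kinase subunit, had closely spaced libraries, 17.0, 14.9 and 17.8 FPKM against 90.9, 90.6 and 95.2 FPKM. CDK1, the mitotic kinase, and UBE2C, a ubiquitin-conjugating enzyme of mitotic exit, rose by 2.39 and 2.40. The thymidylate synthase gene TYMS rose by 2.13, the licensing factor CDC6 by 2.19 and the replication protein RPA2 by 2.43. MKI67, chosen after its values were seen, stood at 2.87, 5.93 and 8.98 FPKM with calcium and at 9.73, 10.6 and 11.2 FPKM with DES and did not pass the test (adjusted p = 0.0777).

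Of 10 genes of cyclin-dependent kinase (CDK) inhibitors and GADD45 proteins 5 rose and 2 fell, with a median of 1.09. The 2 that fell are near the share of all genes called lower (17%). CDKN1A, the p21 inhibitor, stood at 57.9, 129 and 108 FPKM with calcium and at 24.0, 36.6 and 36.8 FPKM with DES (log2 fold change -1.54, SE 0.32, adjusted p = 0.00854). CDKN2B, the p15 inhibitor, fell by 1.87, from 3.64, 1.99 and 5.23 FPKM to 0.804, 1.06 and 0.720 FPKM. The stress genes GADD45G and GADD45A rose by 2.64 and 1.47.

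LIF had the largest fall of the protein-coding genes named by rule. LIF (ENSG00000128342, chromosome 22, 30240447 to 30246851, minus strand), a cytokine of the IL-6 family, stood at 50.4, 123 and 39.2 FPKM with calcium and at 1.24, 0.734 and 0.998 FPKM with DES and calcium. All DES libraries were far below all calcium libraries, and the log2 fold change was -5.87 (SE 0.41, adjusted p = 0.000526). The antisense transcript AC004264.1, which overlaps LIF on the other strand, stood at 10.2, 25.9 and 6.13 FPKM with calcium and at 0, 0.116 and 0 FPKM with DES; since the labels state strandedness in more than 1 way, its fragments may be those of LIF. Of 9 IL-6 family genes tested 4 fell and none rose, with a median of -0.54 that was -0.35 with quantile normalization and -0.91 without DES with calcium replicate 2. CLCF1, another cytokine of the family, fell by 3.53, from 7.69, 15.7 and 10.8 FPKM to 0.655, 0.655 and 1.41 FPKM. IL6R, the receptor of interleukin 6, fell by 2.04. IL6 stood at 0.585, 7.71 and 0.410 FPKM with calcium and at 0, 0.0894 and 0 FPKM with DES, and its call (adjusted p = 0.0447) ended without calcium replicate 1 or 2 or any 1 of the DES with calcium replicates, at an adjusted p of up to 0.103. IL6, 1 of the 4 that fell, passed the filter only through the calcium libraries.

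F2RL1 (ENSG00000164251, chromosome 5, 76818933 to 76835315, plus strand), a receptor activated by trypsin-like proteases, stood at 25.1, 27.6 and 36.01 FPKM with calcium and at 0.396, 1.09 and 0.395 FPKM with DES. The second DES library was the highest of its group and far below every calcium library, and the log2 fold change was -5.46 (SE 0.36, adjusted p = 0.000526).

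Of 25 immediate early genes 15 fell and 2 rose, with a median of -1.55; without calcium replicate 2 there were 9 that fell, and 1 rose without calcium replicate 1 or 3 or DES with calcium replicate 1 or 3. RASD1 (ENSG00000108551, chromosome 17, 17494437 to 17496395, minus strand), a Ras-like protein, stood at 54.2, 179 and 41.0 FPKM with calcium and at 3.07, 5.74 and 5.31 FPKM with DES and calcium. The second calcium library was the highest, and all 3 were above the DES libraries (log2 fold change -3.99, SE 0.52, adjusted p = 0.00183). IER3, an early gene tied to survival, stood at 459, 809 and 339 FPKM and at 37.1, 52.8 and 34.1 FPKM, a log2 fold change of -3.62 (SE 0.33). The zinc finger factors KLF2 and KLF6 fell by 3.52 and 3.20, with no overlap between groups. EGR1, chosen after its values were seen, stood at 176, 99.4 and 191 FPKM with calcium and at 40.2, 39.5 and 25.5 FPKM with DES.

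The AP-1 genes FOS and JUN, chosen after their values were seen, did not pass the test. FOS stood at 97.9, 277 and 116 FPKM with calcium and at 135, 173 and 88.4 FPKM with DES and calcium, and JUN at 203, 204 and 229.5 FPKM and at 286, 234 and 164 FPKM. Both genes had overlapping groups, with log2 fold changes of -0.20 for FOS, which was 0.26 without calcium replicate 2 and 0.06 without DES with calcium replicate 3, and 0.07 for JUN, which was -0.13 under the total-fragment scaling and in limma-voom, -0.54 with quantile normalization and -0.11 without DES with calcium replicate 1. ATF3, chosen after its values were seen, stood at 48.5, 235 and 61.0 FPKM with calcium and at 33.0, 57.0 and 37.6 FPKM with DES (adjusted p = 0.153).

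Genes of MAP kinase feedback fell more often than they rose. Of 17 tested 7 fell and 2 rose, with a median of -0.46, and 4 fell without calcium replicate 1; the median was -0.86 and -0.28 without DES with calcium replicates 2 and 3. DUSP6, the phosphatase of ERK, stood at 53.2, 34.4 and 39.7 FPKM with calcium and at 9.80, 10.6 and 10.1 FPKM with DES (log2 fold change -2.03, SE 0.19). ERRFI1, an inhibitor of the EGF receptor, fell by 2.05 and SPRED2, an inhibitor of Ras signaling, by 1.49. PHLDA1 fell by 1.88 (adjusted p = 0.0329), a call that ended without calcium replicate 1, 2 or 3 or DES with calcium replicate 1 or 3, at an adjusted p of up to 0.135.

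Of 15 interferon response genes tested 13 fell and none rose, with a median of -1.51, and the libraries did not overlap for those 13. The number that fell was 10 to 13 without any 1 library. With DES against control none was called lower and 2 were called higher, with a median of 0.97. Of all 14608 genes 2295 were called higher there and 1841 lower, so 2 of 15 is near the share of all genes. In the interaction 2 were called toward a more negative effect with calcium, with a median of -2.71; 1 was called without a filter, 4 in limma-voom and for protein-coding genes only, 5 with a pseudocount of 1 or a replicate block, and 7 without control replicate 1. Against the effect with cadmium 2 were called more negative with calcium, in a test with no call left without calcium replicate 1 or 2 or DES with calcium replicate 1 or 2. IFIT1 (ENSG00000185745, chromosome 10, 89392546 to 89406486, plus strand), an antiviral RNA-binding protein, stood at 122, 55.4 and 92.4 FPKM with calcium and at 12.1, 5.09 and 8.19 FPKM with DES and calcium. The highest DES library was below the lowest calcium library, and the log2 fold change was -3.41 (SE 0.37, adjusted p = 0.00112). IFIT3, its partner, fell by 3.00, OAS2, which senses double-stranded RNA, by 2.51, and MX1, an antiviral GTPase, by 2.42.

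Of 8 NF-kappaB target genes 1 fell and none rose, with a median of -0.53; 2 fell by total fragments or with a replicate block and 3 in limma-voom. The 1 that fell is near the share of all genes called lower (17%). The median was -0.11 and -0.89 without calcium replicates 2 and 3. CXCL8, the interleukin 8 gene, stood at 5.87, 51.3 and 5.03 FPKM with calcium and at 1.30, 1.81 and 1.46 FPKM with DES. The second calcium library stood far above the others, and the call (adjusted p = 0.0251) ended without any 1 of the DES with calcium replicates, at an adjusted p of up to 0.0958.

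Of 9 YAP target and CCN genes 4 fell and 1 rose, with a median of -1.36, and the 1 that rose was not called without calcium replicate 1 or 2 or DES with calcium replicate 1 or 3, nor by total fragments or in limma-voom. CYR61, a matricellular protein, stood at 108, 237 and 186 FPKM with calcium and at 30.9, 38.3 and 56.1 FPKM with DES (log2 fold change -2.05, SE 0.33). AJUBA, a LIM protein of cell contacts, fell by 1.42. NOV, another matricellular protein, fell by 2.05, a call that ended without DES with calcium replicate 2 (adjusted p = 0.0525).

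Of 12 Notch pathway genes 5 fell and 1 rose, with a median of -0.80, and 3 fell without calcium replicate 2. LFNG, which glycosylates Notch receptors, stood at 17.6, 12.95 and 14.2 FPKM with calcium and at 1.19, 1.80 and 1.61 FPKM with DES and calcium, and the groups lay far apart (log2 fold change -3.21, SE 0.23). NOTCH3, a receptor, went from 47.2, 36.6 and 40.3 FPKM to 9.29, 6.76 and 11.8 FPKM. DLL1, a ligand, rose by 1.81, and HES1, a target, fell by 1.57 (adjusted p = 0.0128), a call that ended without calcium replicate 1 or 2 or DES with calcium replicate 2, at an adjusted p of up to 0.0598.

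Of 16 TGF-beta and BMP pathway genes 6 fell and 4 rose, with a median of 0.14 that was -0.05 when scaled by total fragments, -0.04 in limma-voom, 0.02 by quantiles, -0.15 and 0.26 without calcium replicates 1 and 3 and 0.04 without DES with calcium replicate 2. Without calcium replicate 3 or DES with calcium replicate 1 or 3 there were 3 that fell, and without DES with calcium replicate 1 or 2 there were 2 that rose. SMAD3, a signal transducer, stood at 17.4, 15.6 and 14.8 FPKM with calcium and at 3.79, 3.27 and 3.28 FPKM with DES (log2 fold change -2.17, SE 0.17). LTBP1, which binds latent TGF-beta, fell by 2.00. TGFB2, a ligand, and TGFBR2, a receptor, fell by 2.84 and 2.26, calls that each ended without calcium replicate 3 or DES with calcium replicate 1 or 3, for TGFB2 also without calcium replicate 2 and for TGFBR2 also without calcium replicate 1, at adjusted p of up to 0.0730 and 0.141. TGFBR2 passed the filter only through the calcium libraries.

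Ribosomal protein genes rose. All 27 tested were called higher and had groups that did not overlap, with a median of 1.24, while with quantile normalization 23 were called and the median was 0.62. By total fragments 26 were called, and 21 to 26 of them were called without any 1 library. RPLP0 (ENSG00000089157, chromosome 12, 120196686 to 120201235, minus strand), a protein of the ribosomal stalk, stood at 259, 268 and 216 FPKM with calcium and at 528, 627 and 601 FPKM with DES and calcium. The libraries of each group lay within a narrow range, and the log2 fold change was 1.24 (SE 0.18, adjusted p = 0.00243). RPS2, of the small subunit, rose by 1.74 and RPLP1 by 1.49.

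Of 13 protein-coding genes of the mitochondrial genome 8 fell and none rose, with a median of -0.99; without DES with calcium replicate 3 there were 5 that fell, and without any other library 4. MT-CO2 (ENSG00000198712, mitochondrial genome, 7586 to 8269, plus strand), a subunit of cytochrome oxidase, stood at 9003, 6974 and 9875 FPKM with calcium and at 3153, 3165 and 1777 FPKM with DES. No DES library came near the calcium libraries, and the log2 fold change was -1.71 (SE 0.32, adjusted p = 0.00599). MT-ND6 and MT-ND1, subunits of complex I, fell by 1.87 and 1.54. The mitochondrial ribosomal RNAs, chosen after their values were seen, went the other way. MT-RNR1 stood at 1381, 844 and 1339 FPKM with calcium and at 3084, 2598 and 3938 FPKM with DES, a rise of 1.45 that was not called without DES with calcium replicate 1 (adjusted p = 0.0510), and MT-RNR2 rose by 1.71, which was not called without calcium replicate 1 or 2 or DES with calcium replicate 1, at an adjusted p of up to 0.0924. As a share of all fragments, the mitochondrial genome took 6.91%, 4.88% and 7.55% with calcium and 5.17%, 4.34% and 4.57% with DES, and its ribosomal RNAs took 0.892%, 0.540% and 1.15% and then 2.59%, 1.81% and 2.59%. These RNAs are reached by poly-A capture only in part, and the part of RNA quality in their levels was not tested.

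Metabolic target genes of the estrogen-related receptors, which encode mitochondrial proteins in the nucleus, rose more often than they fell. Of 31 tested 18 rose and 2 fell, with a median of 0.79, while 10 rose and 3 fell with quantile normalization, with a median of 0.45; 12 to 17 rose without any 1 library, and 1 fell without calcium replicate 2 or 3 or DES with calcium replicate 1 or 2. NDUFS3, of complex I, stood at 15.4, 15.2 and 9.18 FPKM with calcium and at 46.1, 42.5 and 34.1 FPKM with DES and calcium (log2 fold change 1.64, SE 0.24). SDHD, of succinate dehydrogenase, rose by 1.54, and COX6A1 and COX5B, of cytochrome oxidase, by 1.38 and 1.37.

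Of the receptor genes ESRRA (ENSG00000173153, chromosome 11, 64305572 to 64316743, plus strand) stood at 23.1, 22.8 and 22.3 FPKM with calcium and at 9.67, 9.85 and 11.8 FPKM with DES. The calcium libraries were almost equal and all above the DES libraries, and the log2 fold change was -1.12 (SE 0.16, adjusted p = 0.00230). ESRRG, below the filter and so not tested, stood at 0.218, 0.252 and 0.295 FPKM and at 0.181, 0.144 and 0.0952 FPKM. ESRRB stood at 0, 0.116 and 0 FPKM with calcium and at 0.0104, 0 and 0.0109 FPKM with DES and calcium, so a change in it was not detectable at this depth. Of 9 tested receptor and coregulator genes 2 fell and none rose, with a median of -0.51; in limma-voom 5 fell and the median was -0.72. The 2 that fell are near the share of all genes called lower (17%). The other that fell was NCOA3, a coactivator of nuclear receptors, from 10.9, 9.28 and 12.6 FPKM to 5.58, 6.01 and 4.98 FPKM.

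The list of PCR genes held 11 genes, of which 2 passed the filter. Beside RPLP0 this was KLF4 (ENSG00000136826, chromosome 9, 107484852 to 107490482, minus strand), a pluripotency factor, at 22.1, 43.5 and 30.2 FPKM with calcium and at 12.7, 19.5 and 7.89 FPKM with DES and calcium. The groups did not overlap, by a small margin, and the log2 fold change was -1.29 (SE 0.36, adjusted p = 0.0265). That call ended without calcium replicate 2 or 3 or DES with calcium replicate 1 or 3, at an adjusted p of up to 0.107. The 9 genes below the filter included SOX2, NANOG, POU5F1, IGF1, DPT, SFRP2 and PRL; the highest level of any of these in the 6 libraries was 0.192 FPKM, of POU5F1.

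Of 14 androgen response genes 7 fell and 2 rose, with a median of -0.88; 6 or 7 fell without any 1 library, and 1 rose without calcium replicate 2 or DES with calcium replicate 1 or when scaled by total fragments. SLC45A3, a prostate-type transporter, stood at 23.8, 22.1 and 18.9 FPKM with calcium and at 6.50, 7.43 and 7.996 FPKM with DES. ELL2, an elongation factor, fell by 1.41 and the transcription factor MAF, which passed the filter only through the calcium libraries, by 2.28. PIP, a secreted protein of apocrine cells, rose by 1.85, from 145, 71.1 and 104 FPKM to 634, 284 and 279 FPKM.

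Of 12 luminal markers 2 rose and 3 fell, beside 19.2% of all genes called higher and 17% called lower. GATA3, a luminal transcription factor, CLDN4, a tight junction protein, and ELF3, an epithelial transcription factor, were chosen after their values were seen. GATA3 stood at 333, 241 and 214 FPKM with calcium and at 127, 109 and 122 FPKM with DES. CLDN4 stood at 136, 220.0 and 195 FPKM and at 23.3, 27.8 and 22.3 FPKM, a log2 fold change of -2.88 (SE 0.21). ELF3 rose from 10.7, 15.5 and 12.3 FPKM to 64.5, 43.3 and 29.9 FPKM. None of these 3 markers had overlapping groups. The others called were KRT19, a keratin, and EPCAM, an adhesion protein, with log2 fold changes of -0.75 (adjusted p = 0.0341) and 0.57 (adjusted p = 0.0494), chosen after their values were seen. Both calls ended without calcium replicate 1 or 2 or any 1 of the DES with calcium replicates, at adjusted p of up to 0.172 and 0.156, and that of EPCAM also by total fragments, by quantiles, in limma-voom, with a pseudocount of 1 and with all 7 groups in 1 fit. Of 15 estrogen response genes 4 rose and 3 fell, with a median of -0.05 that was -0.24 by total fragments, -0.27 by quantiles and -0.26 in limma-voom, where 3 rose and 5 fell; it was -0.24 and -0.17 without calcium replicate 1 and DES with calcium replicate 3, and 1 fell without DES with calcium replicate 1. The counts of this list also stand beside 19.2% and 17% of all genes. RERG, a Ras-like growth inhibitor, and TFF3, a secreted trefoil peptide, rose by 2.05 and 1.82, while TFF1, another trefoil peptide, did not pass the test (adjusted p = 0.651). AREG, a ligand of the EGF receptor, stood at 9.57, 67.9 and 25.6 FPKM with calcium and at 2.73, 4.12 and 3.78 FPKM with DES, and its call (log2 fold change -2.84, adjusted p = 0.00982) ended without DES with calcium replicate 1 (adjusted p = 0.0534).

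Of 24 genes of cholesterol synthesis and uptake 8 fell and 1 rose, with a median of -0.71 that was -0.46 without DES with calcium replicate 1; by total fragments, by quantiles and in limma-voom none rose, and with a replicate block 13 fell. The number that fell was 4 without any 1 of the calcium replicates or DES with calcium replicate 1 or 2, and 12 without DES with calcium replicate 3; the 1 that rose was called without calcium replicate 3 but not without any other library. LSS and FDPS, enzymes of the pathway, and INSIG1, its feedback regulator, fell by 1.90, 1.89 and 1.33, calls that ended without any 1 of the calcium replicates or DES with calcium replicate 1 or 2, at adjusted p of up to 0.0869, 0.102 and 0.0835. In the third DES library all 3 of these genes were higher than in the other two.

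Of 10 tubulin genes 6 fell and 2 rose, with a median of -0.94, and 1 rose by total fragments and in limma-voom. Without calcium replicate 2 there were 2 that fell, and without calcium replicate 3 or DES with calcium replicate 1 or 2 there were 3; without DES with calcium replicate 1 or 2 there was 1 that rose. TUBA1C (ENSG00000167553, chromosome 12, 49188736 to 49274603, plus strand), an alpha tubulin, stood at 55.4, 48.5 and 59.0 FPKM with calcium and at 15.2, 16.5 and 17.1 FPKM with DES. Its libraries lay close together within each group, and the log2 fold change was -1.73 (SE 0.16, adjusted p = 0.000707). TUBE1, an epsilon tubulin of centrioles, rose by 1.49. Tubulin genes are similar in sequence, so how fragments divide among them is uncertain.

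**Figure D3:**
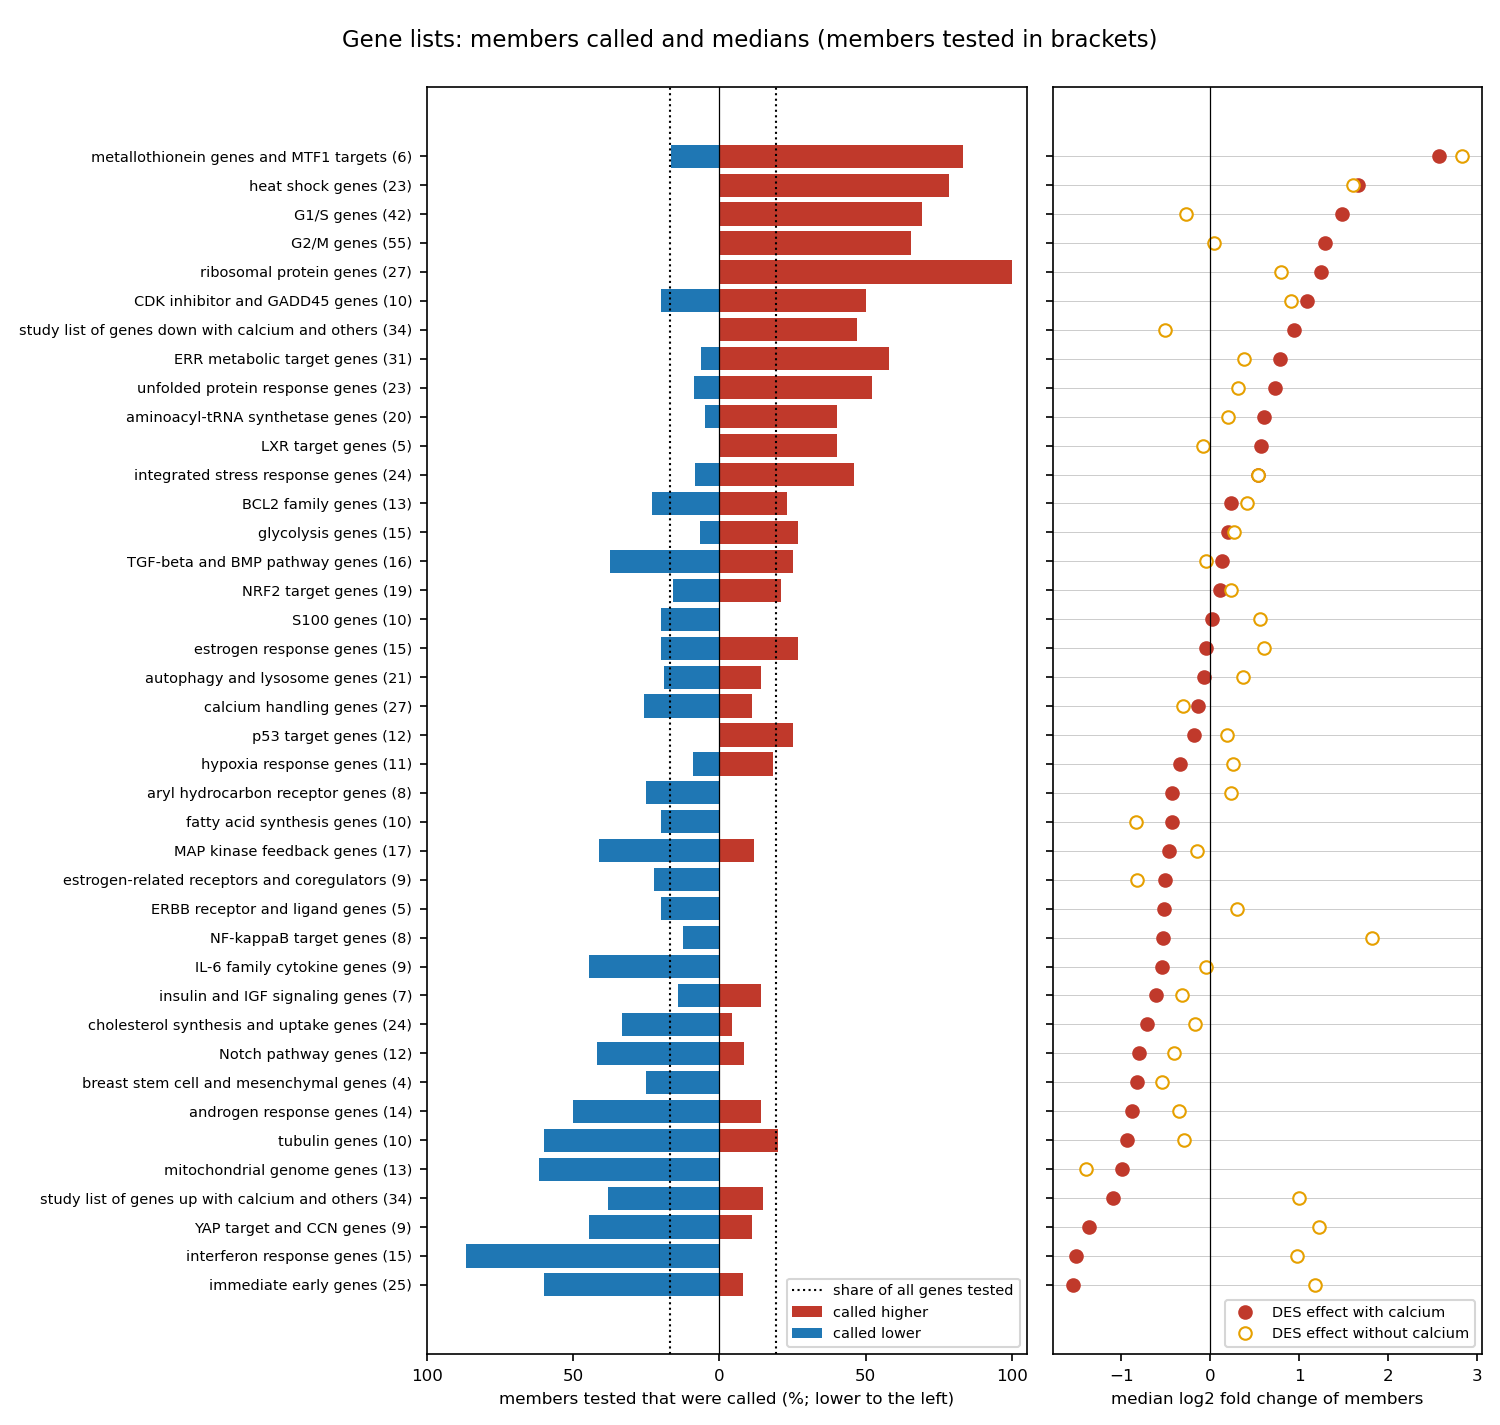
Left, percent of tested members of each gene list called higher or lower with DES and calcium against calcium, with dotted lines at 19.2% and 17% of all genes. Right, the median log2 fold change of each list for DES with calcium against calcium (filled) and for DES against control (open).

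Among the 10 largest rises and 10 largest falls were noncoding genes and pseudogenes, most of them lying in or beside coding genes. AL031710.2 (ENSG00000275092), inside an intron of MAPK8IP3 on the same strand, stood at 0.310, 0.951 and 0.186 FPKM with calcium and at 33.5, 24.5 and 35.8 FPKM with DES and calcium. MAPK8IP3 itself had a log2 fold change of -0.16 (adjusted p = 0.544), so the intronic gene and its host did not move alike. AC025031.3, inside SLC38A1, and AC004471.1, antisense to DGCR2, rose by 5.10 and 5.08, while log2 fold changes were -0.99 for SLC38A1 and -0.92 for DGCR2. AL132639.3, antisense to PNN, rose by 5.85 beside 0.44 for PNN (adjusted p = 0.160). Z99129.1, a pseudogene inside SERINC1, stood at 0, 0 and 0.525 FPKM with calcium and at 4.35, 6.89 and 6.62 FPKM with DES.

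The histone gene HIST1H2AJ stood at 0, 0 and 0.231 FPKM with calcium and at 7.32, 4.90 and 10.1 FPKM with DES and calcium, and its neighbour HIST1H2BM, 304 bases away, rose by 3.48. RN7SL472P, a 7SL RNA pseudogene 3266 bases from HSP90AA1, stood at 0, 0.195 and 0 FPKM and at 3.36, 5.99 and 10.2 FPKM. Histone transcripts mostly lack a poly-A tail, so these levels are those of the captured part.

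Falls to 0 were seen for 3 genes. TMEM88, a membrane protein of Wnt signaling, stood at 1.74, 10.7 and 1.33 FPKM with calcium and at 0 in every DES with calcium library. With 3 fragments per library as the floor its mean was at least 23.2-fold lower. That ratio of means rests largely on the second calcium library, and single libraries can lie closer. TMEM88 lies 269 bases from KDM6B, a histone demethylase, chosen after its values were seen, which went from 8.95, 13.7 and 8.997 FPKM to 3.18, 2.68 and 1.53 FPKM. The mean of AL645608.1, antisense to ISG15, was at least 9.74-fold lower, and that of AC090192.2, a long noncoding RNA, at least 9.86-fold lower by the same floor. ISG15 fell by 1.30, a call (adjusted p = 0.0370) that ended without calcium replicate 1 or 2 or any 1 of the DES with calcium replicates, at an adjusted p of up to 0.139; it was chosen after its values were seen. AC025259.3, which overlaps NR4A1, fell by 5.46, and AC129492.6, a pseudogene, by 5.01. AL513304.1, in an intron of ADARB2, stood at 22.2, 30.6 and 17.9 FPKM with calcium and at 4.46, 0 and 0 FPKM with DES (adjusted p = 0.0110), and RN7SL314P, overlapping ANKRD30A, at 10.4, 5.09 and 8.41 FPKM and at 0, 0 and 2.00 FPKM (adjusted p = 0.0124). The call of AL513304.1 ended without calcium replicate 2 or DES with calcium replicate 2, and that of RN7SL314P without calcium replicate 1 or DES with calcium replicate 1 or 2, at adjusted p of up to 0.0593 and 0.0591.

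The direction of change went with the length of the gene. The 10933 protein-coding genes tested were divided by length into 4 classes of nearly equal size. In the shortest class, 207 to 3231 bases long, 976 of 2734 were called higher (35.7%) and 298 lower (10.9%), with a median of 0.43. In the longest class, 7437 to 44677 bases, 225 of 2733 were called higher (8.23%) and 690 lower (25.2%), with a median of -0.31. The middle classes had medians of 0.07 and -0.10. Across these genes Spearman's rho between length and log2 fold change was -0.268, and between mean FPKM and log2 fold change 0.264; genes are not independent replicates. The same classes in DES against control had medians of 0.39, 0.07, -0.09 and -0.31. Ribosomal protein, metallothionein and many chaperone genes are short, and the part of gene length in the counts of the lists was not tested.

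**Figure D4:**
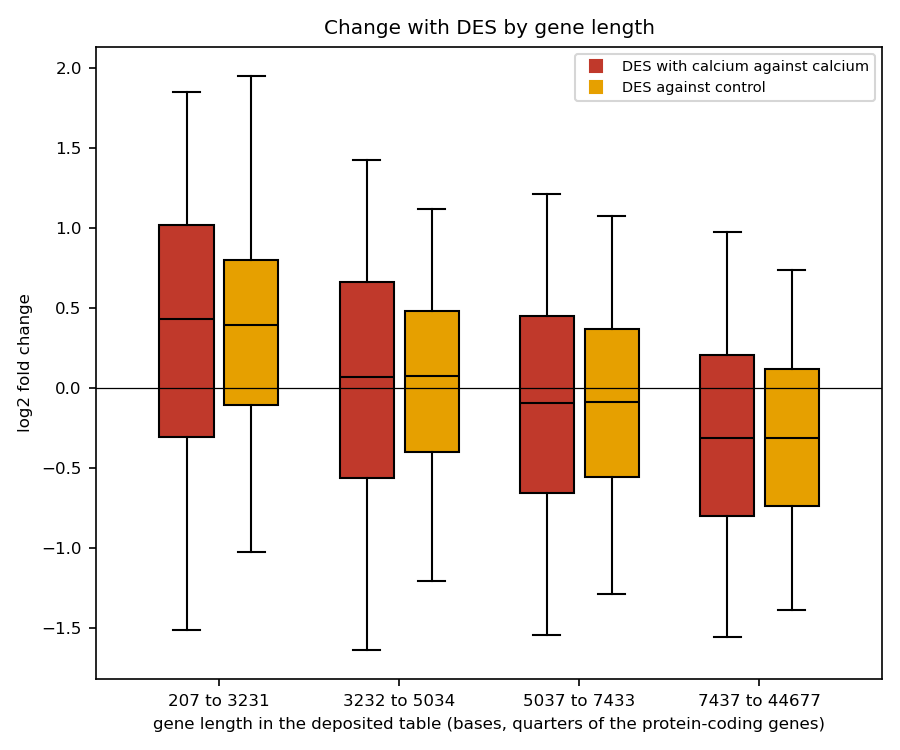
Log2 fold change of protein-coding genes in 4 classes of gene length, for DES with calcium against calcium and for DES against control, with boxes from the lower to the upper quartile, a line at the median and whiskers from the 5th to the 95th percentile. With calcium the medians run from 0.43 in the shortest class to -0.31 in the longest.

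DES was also compared with control, without calcium, in 6 libraries that the comparison above does not use. On the same 14608 genes limma called 4136 (28.3%), 2295 higher and 1841 lower, a balance that turned to 1763 and 2472 by total fragments, 1989 and 2431 by quantiles and 1750 and 2898 in limma-voom. With a replicate block there were 2458 calls; the calls numbered 1597, 1877 and 2697 without control replicates 1, 2 and 3 and 2196 without DES replicate 2. Of the calls, 1219 were higher and 1083 lower with and without calcium, 2302 genes in all, which is 43.5% of the calls with calcium and 55.7% of those without. A further 49 genes were called in opposite directions, 43 of them lower with calcium and higher without. Across genes the log2 fold changes with and without calcium had a Pearson's r of 0.619 and a Spearman's rho of 0.619, as a description, since genes are not independent replicates.

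The difference between the effects of DES with and without calcium was tested as an interaction over 12 libraries. It was called for 544 genes (3.72%), 188 with a more positive effect when calcium was present and 356 with a more negative one, and 2891 genes had an unadjusted p under 0.05. With all 7 groups in 1 fit 22 were more positive and 173 more negative, without a filter 24 and 60, and with arrayWeights 1038 and 1462. Without control replicate 1 there were 42 and 134, without control replicate 2 there were 42 and 124, and without DES replicate 1 there were 310 and 520. The number called was 269 and 263 without calcium replicates 1 and 2, 207 and 254 without DES replicates 2 and 3, and 227 and 314 without DES with calcium replicates 1 and 3. The interaction contains the libraries of the comparisons it is built from, so the values of the 4 groups are given side by side. DES came 3 h before calcium in the combined group, with no such lead in the DES group. The medium of the control is not stated separately. Calcium, the timing of DES and the medium can therefore not be told apart in the interaction.

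**Figure D5:**
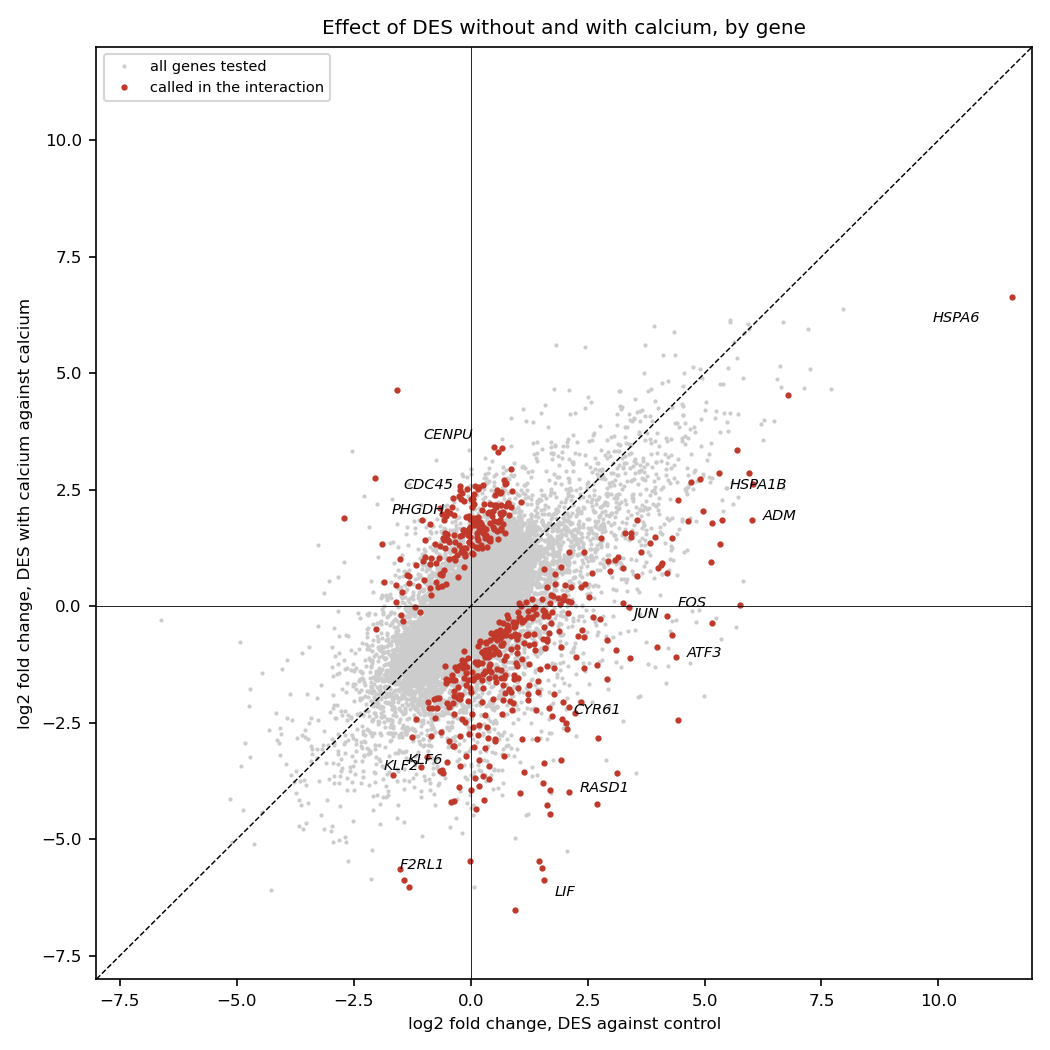
Log2 fold change of each gene for DES against control (horizontal) and for DES with calcium against calcium (vertical), with genes called in the interaction in red and a dashed line where both are equal. The points scatter about the line, with a Pearson's r of 0.619 across genes, and 356 called genes lie below it and 188 above it.

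The cell cycle genes differed. Of 42 G1/S genes 21 had a called interaction, all toward a more positive effect with calcium, and of 55 G2/M genes 8, but with all 7 groups in 1 fit 0 were called in either list. Without a filter 0 and 1 were called, and with arrayWeights 37 and 35. The G1/S calls numbered 4 and 5 without control replicates 1 and 2, 9 and 13 without calcium replicates 1 and 2, 5 and 9 without DES replicates 2 and 3, and 4 and 10 without DES with calcium replicates 1 and 3. The G2/M calls numbered 1 to 3 without any 1 of these libraries, 15 without calcium replicate 3, 5 by total fragments and 13 for protein-coding genes only. The list medians for DES against control were -0.27 and 0.05, beside 1.48 and 1.30 with calcium. CDC45 had means of 22.0 FPKM in control, 3.78 with calcium, 23.5 with DES and 22.4 with both (interaction 2.35, SE 0.49, adjusted p = 0.0272). MCM2, a helicase subunit, chosen after its values were seen, had means of 31.3, 4.99, 27.5 and 23.8 FPKM in the same order. Both calls ended with all 7 groups in 1 fit, without a filter, without control replicate 1 or 2, DES replicate 2 or 3 or DES with calcium replicate 1 or 3, and for CDC45 also without calcium replicate 1, at adjusted p of up to 0.0697 and 0.0706 without a library. For these genes the low group was the one with calcium alone, and the levels with DES were near those of the control. PHGDH had means of 25.9, 7.70, 25.8 and 28.4 FPKM (interaction 1.90, SE 0.26, adjusted p = 0.00423), a call that ended only with all 7 groups in 1 fit.

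Immediate early genes differed the other way, with 17 of 25 called toward a more negative effect with calcium and a median for DES against control of 1.18 beside -1.55. With all 7 groups in 1 fit 13 were called, without a filter 4, and without control replicate 1 or 2, calcium replicate 2 or DES with calcium replicate 1 there were 10 or 11. FOS had means of 0.420 FPKM in control, 164 with calcium, 11.2 with DES and 132 with both (interaction -4.41, SE 0.70, adjusted p = 0.00959). JUN had means of 25.9, 212, 231 and 228 FPKM, and ATF3 of 1.91, 115, 41.1 and 42.6 FPKM. So each of the 3 genes was higher in every treated group than in the control. LIF had means of 0.131, 71.0, 0.770 and 0.991 FPKM (interaction -7.44, SE 0.85, adjusted p = 0.00252), and F2RL1 of 0.302, 29.5, 0.393 and 0.628 FPKM (interaction -5.45, SE 0.73, adjusted p = 0.00423); both were high with calcium alone. RASD1 had means of 0.431, 91.5, 2.30 and 4.70 FPKM and CYR61 of 9.34, 177, 36.7 and 41.7 FPKM. The interaction calls of FOS, JUN and ATF3 ended only without a filter, and those of LIF, F2RL1, RASD1 and CYR61 under no setting.

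Other lists with called interactions included NF-kappaB targets, 5 of 8, MAP kinase feedback, 5 of 17, YAP targets, 4 of 9, CDK inhibitors and GADD45, 4 of 10, and the IL-6 family, 3 of 9, all toward a more negative effect with calcium. NF-kappaB and YAP targets had medians of 1.82 and 1.22 for DES against control, with 6 of 8 and 5 of 9 called higher, beside -0.53 and -1.36 with calcium. With all 7 groups in 1 fit these 5 lists had 2, 3, 2, 1 and 1 calls and without a filter 0, 1, 1, 1 and 1. Without control replicate 1 the calls numbered 1, 2, 3, 1 and 1, and without DES with calcium replicate 1 they numbered 1, 3, 3, 2 and 1. Of 24 integrated stress response genes 2 had a more positive and 2 a more negative effect. The lists that the study drew up from calcium, cadmium and GSK4716, chosen on libraries that include these, had 12 of 34 called on each side, the higher genes toward a more negative effect and the lower genes toward a more positive one. With all 7 groups in 1 fit these counts were 8 and 1, without a filter 6 and 0, and with arrayWeights 26 and 25. Without control replicate 1 they were 9 and 2, and without DES with calcium replicate 1 they were 10 and 2.

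Of 23 heat shock genes 19 were called higher with DES against control, with a median of 1.60, and 4 had a called interaction, each toward a less positive effect with calcium, of which 1 was left with all 7 groups in 1 fit or without a filter and 2 without control replicate 1. HSPA6 had means of 0.212 FPKM in control, 9.12 with calcium, 966 with DES and 836 with both (interaction -4.94, SE 0.62, adjusted p = 0.00363), so its level with DES was alike with and without calcium and its level without DES was higher with calcium. HSP90AA1 had means of 282, 326, 1868 and 2150.4 FPKM (interaction 0.03, adjusted p = 0.974). MT2A had means of 59.6, 75.9, 475 and 689.6 FPKM. Limma called the interaction for 0 of 6 members of the metallothionein list, beside 3.72% of all genes. Of 27 ribosomal protein genes 5 were called higher with DES against control, a share near that of all genes (2295 of 14608). Their median was 0.80, against 0.05 over all genes, and 0 of 27 had a called interaction in limma. With a share of 3.72% over all genes, 0 of 6 and 0 of 27 do not show that the effects were alike.

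Genes that the study had listed as higher or lower with calcium, cadmium and GSK4716 alike were chosen on libraries that include these calcium libraries, so their direction here is not independent evidence. The copy of the list of higher genes used here held 39 genes and was not complete. Of 34 tested genes on the list of higher genes 13 fell with DES and calcium against calcium and 5 rose, with a median of -1.09, and 7 fell without calcium replicate 3 or DES with calcium replicate 1. Of the 13 that fell 3 passed the filter only through the calcium libraries. Of 34 on the list of lower genes 16 rose and none fell, with a median of 0.94 that was 0.56 without DES with calcium replicate 3. PALLD, an actin-binding protein on the first list, stood at 7.98, 18.3 and 13.97 FPKM with calcium and at 2.50, 2.89 and 2.11 FPKM with DES. CENPK, a kinetochore protein on the second, stood at 0.499, 0.756 and 1.29 FPKM and at 3.73, 3.62 and 5.80 FPKM.

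The effect of DES was also set against its effect in cells given cadmium, in which no library is shared with the calcium groups. Calcium was given without serum and cadmium in 1% charcoal-stripped serum, so the metals and the serum cannot be told apart here. The difference was called for 80 genes (0.548%), 28 more positive and 52 more negative with calcium, a balance that was 29 and 22 by total fragments, 35 and 13 without a filter and 23 and 23 in limma-voom, and 2587 genes had an unadjusted p under 0.05. None was left in limma without calcium replicate 1 or 2 or DES with calcium replicate 1 or 2 (1919, 2013, 2077 and 2157 genes at an unadjusted p under 0.05), 49 and 17 without calcium and DES with calcium replicate 3, 27, 1 and 21 without cadmium replicates 1, 2 and 3, and 121 and 15 without DES with cadmium replicates 1 and 3. Whether single libraries or their smaller number ended these calls was not tested. The largest difference among the genes named by rule was in LIF, whose log2 fold change was -5.87 with calcium and 2.03 with cadmium (difference -7.90, adjusted p = 0.0105). LFNG fell by 3.21 with calcium and had -0.48 with cadmium, and KLF2 fell by 3.52 and had -1.45. Across genes the effects of DES with calcium and with cadmium had a Pearson's r of 0.559 and a Spearman's rho of 0.567, as a description.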

How the data were processed

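RNA of MDA-MB-453 cells was sequenced in 21 libraries, 3 for each of 7 groups, and the 6 libraries of cells given calcium with or without DES were compared. The authors aligned reads with HISAT2 2.0.5 to GRCh38.p14, counted them with featureCounts 1.5.0-p3 and deposited FPKM per gene; the paper names DESeq2 and edgeR for its tests, which were not used here. Fragments per gene, recovered from FPKM and gene length, were whole numbers within 0.02 in 100% of cases. Genes with a mean of at least 0.5 FPKM over the 6 libraries were kept. Log2 of FPKM plus 0.1 was tested with limma 3.58.1 (lmFit, eBayes with trend, two-sided) in R 4.3.3, with p adjusted by Benjamini and Hochberg over all genes tested and called under 0.05; the script was tested on simulated data. DES against control, the interaction over 12 libraries, and the DES effect with calcium minus that with cadmium were tested in the same way on the same genes. Tables, motifs and figures were made with Python 3.11.15, numpy 2.4.6, pandas 2.3.3, scipy 1.17.1 and matplotlib 3.10.9.

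Genes were named by rule: the 10 largest rises and 10 largest falls among called genes with a mean of at least 1 FPKM, a length of at least 200 bases and groups that do not overlap; the 3 called genes with the largest change on each side of the interaction under the same limits; the PCR genes of the study with ESRRA and ESRRG; and of every other list up to 4 called members with the largest change, or up to 3 with the highest mean where none was called. Coding genes nearest to the largest changes were added by position. Some genes that the rule names are not reported here. Members and lists were chosen with earlier results of these data known. Other pseudocounts, filters, scalings, weights, a replicate block, a joint fit of 7 groups, limma-voom and fits without each library were tried.

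The values are limited by 3 libraries per group, for which an exact permutation test cannot give a p under 0.1. FPKM are relative to the size of a library, so amounts per cell were not measured. The size behind the FPKM over the fragments on genes was 1.01, 1.03 and 1.06 with calcium and 0.905, 0.862 and 0.944 with DES and calcium. Descriptions of the library protocol differ on strandedness. Fragments of antisense pairs may therefore be credited to the wrong gene, and those of near-identical family members may be so because of their sequence. Calcium was given without serum and the medium of the control is not stated separately, so whether those groups also differ in medium is not known.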

Additional observations from a re-analysis of the deposited data

Results flagged for a closer look

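The effect of DES differed with and without calcium for 544 genes in the limma interaction, where calcium, the timing of DES and the medium cannot be told apart. The values below are log2 effects with calcium minus those without. Among early genes, cytokines and growth signals they were LIF -7.44, AC004264.1 -7.46, AC025259.3 -6.92, RASD1 -6.09, AREG -5.56, ATF3 -5.48, F2RL1 -5.45, FOS -4.41, JUN -3.20, KLF6 -3.10, KLF2 -2.91, KLF4 -2.28, IER3 -1.95, CLCF1 -2.88, IL6R -1.98, PHLDA1 -3.11 and ERRFI1 -2.29. Among matrix, TGF-beta and adhesion genes they were NOV -4.42, TGFB2 -4.26, CYR61 -4.03, S100A6 -3.35, PALLD -2.97, CLDN4 -2.41 and SMAD3 -1.29. Among stress, calcium and metabolic genes they were HSPA6 -4.94, HSPA1B -2.45, HSPA1A -2.06, ADM -4.18, OPTN -3.11, BBC3 -2.85, CDKN2B -2.60, CDKN1A -2.55, RCAN1 -1.71, PFKP -1.40 and GADD45A -1.32. More positive values with calcium were those of AC104563.1 2.91, PRRT1B 2.89, PBK 2.81, CENPU 2.73, RRM2 2.70, RAD51AP1 2.62, CDCA7 2.59, CENPK 2.50, MCM2 2.39, CDC45 2.35, CDC6 2.12, TYMS 2.11, PHGDH 1.90, RPA2 1.81, CKS1B 1.58 and MTHFD2 1.33. No call ended without any 1 library for LIF, AC004264.1, AC025259.3, RASD1, AREG, ATF3, F2RL1, FOS, JUN, KLF6, NOV, CYR61, PALLD, CLDN4, SMAD3, HSPA6, ADM, OPTN, BBC3, CENPU, CDC6, PHGDH and CKS1B, and those of the other genes ended without 1 library or more. With all 7 groups in 1 fit the calls of CENPU, CDC6, PHGDH, CKS1B, SMAD3 and BBC3 ended too, and of the more positive values only those of AC104563.1 and PRRT1B were still called. Without a filter only LIF, RASD1, F2RL1, KLF6, CYR61, PALLD, SMAD3, HSPA6, ADM, OPTN, BBC3, PHGDH and CKS1B were still called, and the call of AC004264.1 ended also in limma-voom. FOS, JUN, ATF3, HSPA1A, CLDN4, MCM2 and RRM2 were chosen after their values were seen.

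The effect of DES with calcium differed from that with cadmium for 80 genes in limma (0.548%), with log2 differences of -7.90 for LIF, -7.05 for AC004264.1, -2.73 for LFNG, -2.22 for OPTN, -2.07 for KLF2, -2.02 for PFKP, -1.56 for BOK and 1.49 for LARS. No call was left without calcium replicate 1 or 2 or DES with calcium replicate 1 or 2, and 1 was left without cadmium replicate 2. The metals and the serum cannot be told apart in this difference.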

How the results depend on the processing

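Of 152 called named genes 106 kept their call under every setting but the one without a filter, where 122 lost it, and 36 lost it without 1 library or more; none changed direction. The 5290 calls became 1006 without a filter (491 higher, 515 lower), 3567 at a log2 change of at least 1 (1827 higher, 1740 lower), and 3410 to 4499 without 1 library (1756 to 2542 higher, 1641 to 2095 lower). The 544 interaction calls became 84 without a filter, 195 with all 7 groups in 1 fit (22 more positive, 173 more negative), 2500 with arrayWeights, and 166 to 830 without 1 library. The 4136 calls of DES against control became 1715 without a filter, 10117 with arrayWeights, 2583 at a log2 change of at least 1, and 1597 to 4827 without 1 library. The 80 calls of calcium minus cadmium became 142 with a pseudocount of 1, 48 without a filter, 51 by total fragments, 196 with quantile normalization, 823 with all 7 groups, 2393 with arrayWeights, 46 in limma-voom, 206 for protein-coding genes only (added after the data were seen), and 0 to 121 without 1 library. Log2 fold changes that turned were those of FOS, 0.26 and 0.06 without calcium replicate 2 and DES with calcium replicate 3 (and -0.49 without calcium replicate 1), of JUN, -0.13 by total fragments, -0.54 by quantiles, -0.13 in limma-voom and -0.11 without DES with calcium replicate 1 (and 0.29 without DES with calcium replicate 3), and of XBP1, -0.31 by quantiles.

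Replicates with the same number correlated at 0.0968, 0.0515 and 0.137 after group means were removed, and each correlated best with its own number, a hint from the data and not the design, so they were not paired. With a replicate block the calls were 5661 in the comparison with calcium and 2458 for DES against control.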

Other observations

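The counts in this section stand beside 19.2% of all genes called higher and 17% called lower, and several are near these shares. Calcium handling genes gave 3 that rose and 7 that fell of 27, with a median of -0.14 that was 0.01 without calcium replicate 1, -0.34 by total fragments, -0.29 by quantiles and -0.35 in limma-voom. By total fragments 11 fell and in limma-voom 12, with 2 that rose in both; 1 of the 7 passed the filter only through the calcium libraries. Without calcium replicates 1, 2 and 3 there were 3, 2 and 2 that fell, and without DES with calcium replicates 1, 2 and 3 there were 1, 4 and 2. RCAN1, an inhibitor of calcineurin, stood at 7.60, 15.1 and 9.94 FPKM with calcium and at 1.90, 2.68 and 2.23 FPKM with DES and calcium (log2 fold change -2.17, SE 0.28). Of 10 S100 genes 2 fell, with a median of 0.02 that was -0.18 by total fragments and in limma-voom and -0.14 by quantiles. It was -0.07 and -0.43 without calcium replicate 3 and DES with calcium replicate 2, and 0.08 and 0.20 without calcium replicate 1 and DES with calcium replicate 3. Without calcium replicate 2 or 3 or DES with calcium replicate 1 or 3 there was 1 that fell. S100A6, a calcium-binding protein, went from 109, 123 and 165 FPKM to 9.51, 33.3 and 11.97 FPKM. Of 19 NRF2 targets 4 rose and 3 fell, with a median of 0.10 that was -0.09 by total fragments and in limma-voom and -0.18 by quantiles, where 1 rose and 5 fell, and -0.02 without DES with calcium replicate 2. There 2 rose without calcium replicate 2 or 3 or DES with calcium replicate 1 or 2, and 1 fell without calcium replicate 2 or DES with calcium replicate 1. OSGIN1, an oxidative stress gene, fell by 1.92 on the log2 scale and PIR, an iron-binding protein, rose by 1.44.

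Of 15 glycolysis genes 4 rose and 1 fell, with a median of 0.20 that was -0.23 by quantiles, where 2 rose and 3 fell, and 0.00 by total fragments and in limma-voom, where 2 fell; 2 rose without DES with calcium replicate 3. PFKP, a phosphofructokinase, fell by 1.53, and GAPDH rose by 1.28. Of 11 hypoxia genes 2 rose and 1 fell, with a median of -0.35, and 2 fell without DES with calcium replicate 3, by total fragments (median -0.54), by quantiles (-0.57) and in limma-voom (-0.53). The median was -0.09 without calcium replicate 3 and -0.01 and -0.21 without DES with calcium replicates 1 and 3; ADM, a peptide hormone, rose by 1.85 and EGLN3, a prolyl hydroxylase, fell by 1.503. Of 21 autophagy and lysosome genes 3 rose and 4 fell, with a median of -0.07 that was 0.03 without DES with calcium replicate 3, and 1 rose without calcium replicate 1 or 2 or DES with calcium replicate 1 or 3. By total fragments 1 rose and 5 fell (median -0.26), by quantiles 2 and 6 (-0.28) and in limma-voom 1 and 7 (-0.27). ULK1, the kinase that starts autophagy, fell by 1.17, from 21.8, 21.6 and 22.8 FPKM to 10.8, 9.34 and 9.27 FPKM. Of 12 p53 targets 3 rose, with a median of -0.18 that was 0.03 without calcium replicate 3, and 1 rose without calcium replicate 1 or any 1 of the DES with calcium replicates. By total fragments 1 rose and 1 fell (median -0.36), in limma-voom 1 and 2 (-0.38), and by quantiles 2 rose (-0.06). Of 13 BCL2 family genes 3 rose and 3 fell, with a median of 0.23 that was 0.04 by total fragments, 0.01 in limma-voom and 0.02 without DES with calcium replicate 3; 1 rose by total fragments, in limma-voom, by quantiles, and without calcium replicate 1 or 3 or DES with calcium replicate 1 or 2. BBC3, a killer protein on both lists, rose by 1.46, and BOK, another, fell by 1.09.

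Of 10 fatty acid synthesis genes 2 fell, with a median of -0.43 that ran from -0.64 to -0.26 without any 1 library. The number that fell was 1 without calcium replicate 1 or 3 or DES with calcium replicate 1 or 2, 5 without DES with calcium replicate 3 and 4 with a replicate block. ELOVL6, an elongase, fell by 2.05. Of 8 aryl hydrocarbon receptor genes 2 fell, with a median of -0.43; 1 fell without any 1 of the calcium replicates, 2 rose without DES with calcium replicate 3, and 1 rose in limma-voom or with a replicate block. The median was -0.11 and -0.65 without calcium replicates 1 and 2 and -0.28 and -0.25 without DES with calcium replicates 1 and 3. CYP1B1 went from 59.99, 68.4 and 114 FPKM to 35.96, 32.2 and 15.2 FPKM. Of 5 LXR targets 2 rose, with a median of 0.57 that was 0.38 by total fragments and 0.37 in limma-voom; none was called without calcium replicate 2, and 1 without calcium replicate 3 or DES with calcium replicate 1 or 2. Of 7 insulin and IGF genes 1 rose and 1 fell, with a median of -0.61, and none fell without calcium replicate 1 or 3 or DES with calcium replicate 1 or with a replicate block, while 2 fell by total fragments and 3 in limma-voom. The 1 that fell passed the filter only through the calcium libraries; IGFBP3, which binds IGF, rose by 1.75. Of 5 ERBB genes 1 fell, with a median of -0.52, 2 without calcium replicate 2 0 without DES with calcium replicate 1, and 3 by total fragments, by quantiles and in limma-voom. Of 4 breast stem cell and mesenchymal genes 1 fell, with a median of -0.82, and 2 without calcium replicate 1, by total fragments, with a replicate block and in limma-voom; ITGA6, a laminin receptor, fell by 1.58. Of the PXR and CAR list only NR1I3 was tested, at 0.759, 1.09 and 0.959 FPKM with calcium and at 0.503, 0.154 and 0.236 FPKM with DES; it was not called in limma (adjusted p = 0.0745), except without DES with calcium replicate 1, and it was called in limma-voom.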
